A study of Mus with 51 samples.

Results

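The 40 genes described here act in G2 and mitosis, the stages in which a cell condenses its duplicated chromosomes, attaches them to a spindle, separates them and divides. They were chosen by name for their textbook roles, with earlier results of these data known. All 40 were found among the 34923 features of the count table. All 40 also passed the filter on low counts, which left 17211 genes to test. Cyclin-dependent kinase 1 with its cyclins starts mitosis, condensin and topoisomerase II shape the chromosomes, kinetochore proteins hold them to the spindle, a checkpoint delays separation until all are attached, and the anaphase-promoting complex then marks cyclin B and securin for destruction. Most of these genes are transcribed late in the cell cycle and are silent in resting cells. A naive T cell rests in this sense until its receptor meets an agonist.

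The cells were lymph node T cells of 5C.C7 mice, which are Rag2-deficient B10.A animals whose T cells all carry 1 transgenic receptor, so the results concern 1 receptor and no natural repertoire. Cells were sorted at 1, 6 or 24 h after no peptide (NP), GP, MCC or both peptides (MCC+GP). MCC is taken here as the moth cytochrome c peptide, the agonist of the 5C.C7 receptor. The labels do not spell out GP, and the series title speaks of endogenous self-peptides. Populations given MCC, alone or with GP, were split into fractions high and low for CD69 (CD69-hi and CD69-lo), a surface receptor that activated T cells put up early. The labels give no age of the animals, peptide dose or presenting cell, and do not say whether replicates came from separate animals, so the p-values below speak only of variation among libraries, which may be technical.

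The 18 groups hold 51 libraries, 3 in each group except NP, GP and MCC CD69-lo at 6 h, which hold 2. Totals ran from 29030 to 10278776 counts with a median of 5436653. The MCC CD69-hi libraries of 1 h held 852129 to 3346959 counts, and at 24 h the MCC+GP CD69-lo group, at 29030 to 301455 in its 3 libraries, stood apart as the shallowest. The summed level of T-cell markers was 10140 to 18460 CPM, counts scaled to the size of the library, in the other 48 libraries and 4010 to 8095 CPM in those 3. Levels below are CPM after TMM scaling unless another scale is named. A gene is called where edgeR's quasi-likelihood test gives a Benjamini-Hochberg adjusted p under 0.05 over all 17211 genes, and fold changes are log2 estimates ± SE from that model.

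**Figure D1:**
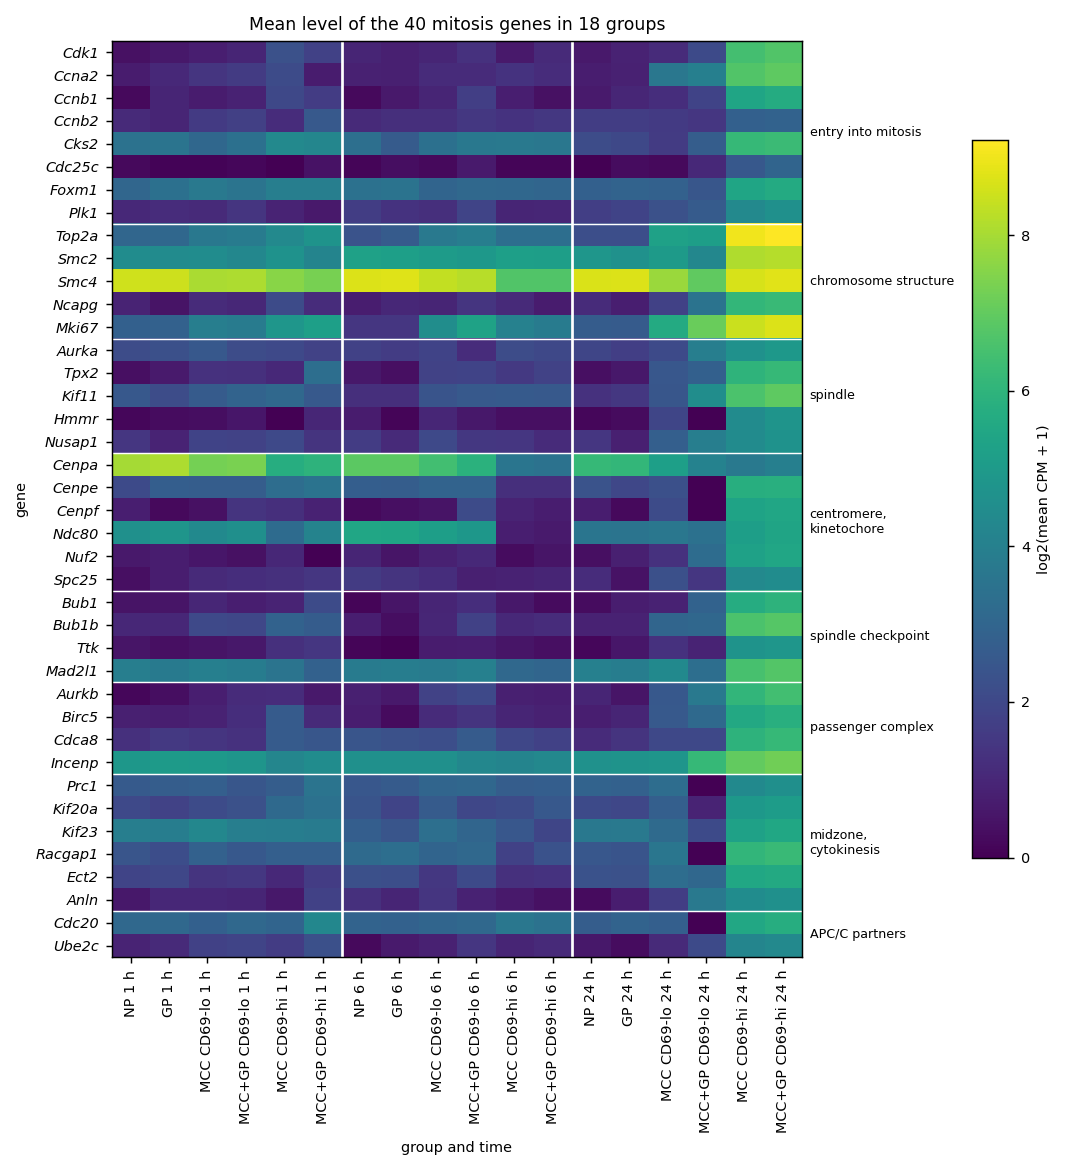
Mean level of each of the 40 genes (rows, in the order of their roles) in the 18 groups (columns, by time), as log2(mean CPM + 1). Nearly the whole panel turns bright in the CD69-hi groups of 24 h, where 39 of 40 genes in MCC cells average at least 5 CPM, while Smc4 and Cenpa are bright in cells without agonist.

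Without peptide, a few of the 40 genes made up most of the signal. The 40 genes summed to 804 ± 68.8 CPM (SD, n = 3) in NP cells at 1 h. Smc4, the ATPase arm of condensin that pairs with Smc2, gave 46.3% of that sum, and Cenpa, the histone H3 variant that marks centromeres, 31.2%. The NP libraries of 1 h held 431, 325 and 362 CPM of Smc4 and 240, 248 and 264 CPM of Cenpa. Those 2 were the only members at or above 50 CPM, and 16 of the 40 averaged under 1 CPM. Levels of different genes can be compared only per length, for which the deposited table headed TPM was used. Its columns sum to 9986 to 9996, which is not the sum that TPM has, so its values serve only to order genes within a group. On that scale Smc4 stood at 3.52 ± 0.35 (SD, n = 3) in NP cells of 24 h and its partner Smc2 at 0.14 ± 0.0095, with the condensin subunit Ncapg at 0.0066 ± 0.0023.

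Members from the other complexes were uneven at rest in the same way. In the Ndc80 complex, which joins microtubules to kinetochores, NP cells of 24 h held Ndc80 at 0.067 ± 0.016 (SD, n = 3) on the deposited length-scaled values, against 0.0019 ± 0.0025 for Nuf2 and 0.017 ± 0.0063 for Spc25. In NP cells of 6 h, where Ndc80 was higher, they stood at 0.27 ± 0.023 (SD, n = 2), 0.0064 ± 0.00028 and 0.028 ± 0.0023. In the chromosomal passenger complex, which corrects wrong attachments, the scaffold Incenp stood at 0.103 ± 0.013 (SD, n = 3) in NP cells of 24 h, and the kinase Aurkb, Birc5 (survivin) and Cdca8 (borealin) at 0.013, 0.0045 and 0.012. Of the checkpoint genes, Mad2l1 (Mad2) stood at 0.074 ± 0.021 in the same cells and Bub1, Bub1b and Ttk at 0.0026, 0.0087 and 0.00083. Among the members given for each of these complexes, 1 stood above the others in cells that had seen no agonist.

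Over time in NP cells the members' share of falls, 10%, was near that of all genes. Between 1 and 24 h, 4 members fell and none rose, where 12.6% of all tested genes fell and 11.3% rose. Of the 40, 16 averaged under 1 CPM in NP cells at 1 h and 15 at 24 h, levels at which a change is hard to call. Cenpa went from 251 ± 11.9 to 71.2 ± 4.67 CPM (log2 fold change −1.82 ± 0.17, adjusted p = 1.39e-12). The others were Ndc80, from 23.4 to 10.8 CPM (−1.12 ± 0.27), Cks2, a small subunit bound by Cdk1, from 10.01 to 3.42 CPM (−1.59 ± 0.34), and Kif11, the motor that pushes spindle poles apart, from 4.84 to 1.46 CPM (−1.68 ± 0.51). Kif11 was not called without replicate 1 of 24 h (adjusted p = 0.0525) or replicate 2 of 1 h (0.0517). For these 4 the NP libraries of 24 h lay below all NP libraries of 1 h. Of the 40 members, called or not, 5 lay below in this way and 5 above, and all genes were not counted.

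At 24 h the agonist raised nearly the whole set in CD69-hi cells. Of the 40 genes, 38 were higher and 1 lower in MCC CD69-hi than in NP cells, where 29.2% of all tested genes were higher and 28.7% lower. In each of the 38 all 3 CD69-hi libraries lay above all 3 NP libraries, which was not counted over all genes. The median log2 fold change of the members was 4.69, against −0.14 over all genes tested, or 4.59 with Cdc25c, which has no count in the NP libraries, set at the bound that 3 counts in the group allow. The members' sum went from 644 ± 54.7 to 3264 ± 493 CPM (SD, n = 3 each). Leaving out Smc4 and Cenpa, it went from 158 ± 6.40 to 2847 ± 440 CPM. In sorted populations, fewer cells in a state and less RNA per cell cannot be told apart.

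The genes of entry into mitosis all rose, 8 of 8. Cdk1, the kinase that drives mitosis, read 99.4, 78.9 and 82.9 CPM in the MCC CD69-hi libraries of 24 h and 0.603, 0.377 and 0.608 CPM in the NP libraries, with no overlap (7.28 ± 0.50, adjusted p = 8.05e-19). Its partner Ccna2 (cyclin A2) read 120, 91.0 and 100 CPM against 0.201, 0.753 and 1.06 CPM, and Ccnb1 (cyclin B1) 52.0, 31.3 and 41.5 CPM against 0.804, 0.188 and 0.759 CPM. Their log2 fold changes were 7.15 ± 0.49 and 6.08 ± 0.59. The polo kinase gene Plk1 rose less, from 2.01, 1.51 and 3.19 CPM to 23.4, 13.2 and 21.4 CPM (3.08 ± 0.51). Foxm1, a transcription factor of late cell cycle genes, had 5.83, 5.46 and 7.14 CPM in NP cells and reached 46.3, 38.9 and 38.6 CPM (2.74 ± 0.33). Cdc25c, a phosphatase that activates Cdk1, had 0 counts in the NP libraries and 102 in the CD69-hi libraries, which makes it at least 27.3-fold higher against a floor of 3 counts over the NP group. Ccnb2 (cyclin B2) rose least of all members that rose, from 2.18 ± 0.73 to 6.02 ± 1.07 CPM (1.47 ± 0.63, adjusted p = 0.0403), and lost its call under RLE size factors (adjusted p = 0.0692), under DESeq2 (0.0669), without a filter on low counts (0.0504), and in each of 5 fits that left out 1 library.

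Of the genes of chromosome structure, 4 of 5 rose. Top2a, which untangles DNA, was the most abundant member per length in CD69-hi cells of 24 h, at 3.62 ± 0.46 (SD, n = 3) on the deposited length-scaled values. It read 571, 432 and 534 CPM against 3.22, 2.07 and 5.77 CPM in NP cells (7.07 ± 0.43, adjusted p = 1.11e-16). Mki67, which encodes the proliferation antigen Ki-67 that coats mitotic chromosomes, read 440, 283 and 353 CPM against 4.22, 3.39 and 8.66 CPM (6.00 ± 0.51). Smc2 and Ncapg rose by 3.30 ± 0.18 and 5.79 ± 0.50 on the log2 scale. Smc4 was the 1 member not called: it read 460, 358 and 397 CPM in CD69-hi and 436, 459 and 350 CPM in NP libraries, which overlap (−0.03 ± 0.14, adjusted p = 0.865). Its estimates ran from −0.19 to 0.04 over the alternatives, so its sign is not determined.

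All 5 spindle genes rose. Kif11 read 118, 80.5 and 93.5 CPM in CD69-hi and 1.01, 1.69 and 1.67 CPM in NP libraries (6.02 ± 0.44, adjusted p = 6.45e-17). Tpx2, which activates Aurora A on the spindle, rose by 7.36 ± 0.79, and Aurka itself by 3.15 ± 0.49. Hmmr had 435 counts against 2, a ratio of 139 with an exact counting interval of 38.3 to 1150 at 95%. The microtubule binder Nusap1 rose by 3.54 ± 0.55.

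Of the 6 centromere and kinetochore genes, 5 rose and Cenpa fell. Cenpe, a kinetochore motor, read 64.2, 41.8 and 54.2 CPM against 4.22, 3.01 and 5.01 CPM (3.69 ± 0.42). Ndc80 read 38.9, 31.9 and 33.7 CPM against 13.9, 9.23 and 9.42 CPM (1.69 ± 0.27, adjusted p = 2.4e-07). Cenpf, Nuf2 and Spc25 rose by 5.76 ± 0.60, 6.87 ± 0.75 and 3.88 ± 0.60. Of the Ndc80 complex, Ndc80, Nuf2 and Spc25 are members, and no other subunit was compared here. Ordered per length within NP cells of 24 h, these 3 ranked 8, 35 and 19 among the members. In CD69-hi cells of 24 h Ndc80, Nuf2 and Spc25 ranked 28, 25 and 24, at 0.19 ± 0.017, 0.22 ± 0.052 and 0.22 ± 0.035 (SD, n = 3). Cenpa read 13.7, 9.65 and 12.9 CPM in CD69-hi and 68.8, 76.6 and 68.4 CPM in NP libraries (−2.55 ± 0.19, adjusted p = 1.07e-17), and was the only member to fall.

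The 4 checkpoint genes and the 4 passenger complex genes all rose. Bub1, a checkpoint kinase, had the largest fitted fold change of the set (7.61 ± 0.75), from 0.24 ± 0.21 to 51.4 ± 10.4 CPM. Bub1b (BubR1) read 113, 81.4 and 95.2 CPM against 0.804, 0 and 1.67 CPM (6.74 ± 0.57, adjusted p = 7.46e-14). The kinase gene Ttk (Mps1) had 535 counts against 2, a ratio of 171 with a counting interval of 47.1 to 1420. Mad2l1 started higher, at 10.3, 18.5 and 17.2 CPM, and reached 100, 76.8 and 99.9 CPM (2.59 ± 0.26). In the passenger complex, Aurkb read 75.8, 56.7 and 64.4 CPM against 1.01, 0.565 and 1.22 CPM (6.08 ± 0.54), and Birc5 51.4, 35.6 and 50.3 CPM against 1.01, 0.377 and 0.759 CPM (5.96 ± 0.65). Cdca8 rose by 5.67 ± 0.45 and Incenp by 2.40 ± 0.21.

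All 6 genes of the spindle midzone and cytokinesis rose, as did both partners of the anaphase-promoting complex. Kif20a, a midzone motor, read 37.7, 19.2 and 31.0 CPM against 2.81, 4.90 and 1.82 CPM (3.21 ± 0.41). Racgap1 and Ect2, which switch on the small GTPase RhoA at the cleavage plane, rose by 3.83 ± 0.32 and 3.45 ± 0.41, and Anln (anillin), a scaffold of the contractile ring, by 6.35 ± 0.77. Prc1, which bundles midzone microtubules, and Kif23, the motor partner of Racgap1, rose least here, by 1.59 ± 0.35 and 1.67 ± 0.30. Cdc20, an activator of the anaphase-promoting complex, read 48.3, 40.9 and 47.5 CPM against 4.42, 7.15 and 5.32 CPM (3.01 ± 0.33, adjusted p = 1.11e-11), and the ubiquitin-conjugating enzyme gene Ube2c rose by 4.98 ± 0.60.

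The size of the rise differed with the resting level, which is part of the ratio. The 11 members at or above 5 CPM in NP cells of 24 h had a median log2 fold change of 2.40, and the 29 below it 5.96. The 3 MCC CD69-hi libraries of 24 h kept the same order for most genes, with replicate 1 highest for 39 of the 40 and replicate 2 lowest for 36. Marker sums of other cells were lower in these CD69-hi cells than in NP cells. The B-cell list summed to 36.4 to 109 CPM against 153 to 270 CPM, with 12 of its 12 genes lower, and the myeloid and dendritic list to 23.8 to 37.1 CPM against 56.5 to 231 CPM, with 11 of 13 genes lower. With the B-cell sum as a covariate the count was again 38 higher and 1 lower. The thymocyte list, of 4 genes, summed to 0.66 to 0.81 CPM in the CD69-hi and 66.7 to 99.4 CPM in the NP libraries, and its part in the fall of Cenpa was not tested.

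**Figure D2:**
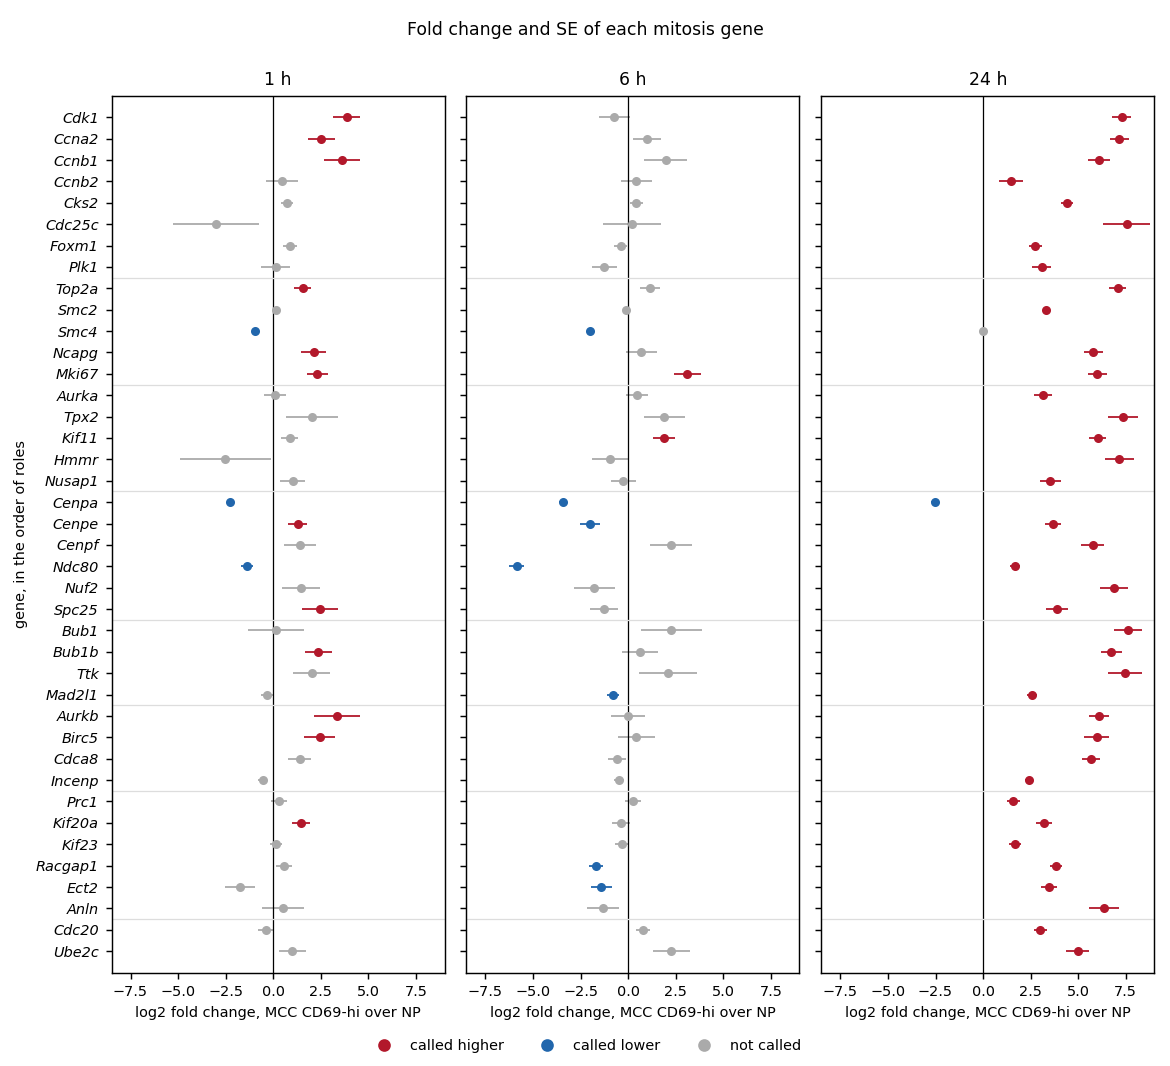
Log2 fold change of MCC CD69-hi over NP cells with its SE (points and bars) for each gene at 1, 6 and 24 h; red genes are called higher, blue lower and grey not called. At 24 h 38 points lie to the right of 0, while at 6 h 19 lie to the right and 21 to the left, with Ndc80 at −5.86.

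At 6 h a part of the set was lower in the same cells. In MCC CD69-hi against NP cells 2 members were higher and 7 lower, where 23.2% of all tested genes were higher and 23.6% lower. The member counts are thus below the share of all genes for rises, at 5%, and below it for falls, at 17.5%. The median log2 fold change was −0.05. Mki67 rose from 2.14 and 1.41 CPM to 19.2, 5.84 and 22.0 CPM (3.11 ± 0.72, adjusted p = 0.00051), and Kif11 from 1.81 and 0.880 CPM to 2.84, 6.26 and 6.03 CPM (1.89 ± 0.57, adjusted p = 0.00489). Kif11 was not called without the second NP library (adjusted p = 0.0949). Of the 40, 15 averaged under 1 CPM in NP cells, and 15 did so in CD69-hi cells.

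The largest fall at 6 h was that of Ndc80. Its level was 46.3 and 38.9 CPM in the NP libraries and 0.711, 0.278 and 1.15 CPM in the CD69-hi libraries, a change of −5.86 ± 0.39 (adjusted p = 2.11e-19). Cenpa read 110 and 125 CPM against 8.53, 12.2 and 12.1 CPM (−3.41 ± 0.21), and Smc4 423 and 419 CPM against 90.1, 116 and 108 CPM (−2.01 ± 0.16). The level of Cenpe fell from 5.43 and 6.16 CPM to 1.07, 2.36 and 0.718 CPM (−2.02 ± 0.53), that of Racgap1 from 6.59 and 9.5 CPM to 2.49, 3.06 and 1.87 CPM (−1.69 ± 0.39), and that of Ect2 from 4.45 and 3.17 CPM to 1.42, 1.53 and 1.29 CPM (−1.41 ± 0.54, adjusted p = 0.0264). Mad2l1 went from 13.7 and 13.2 CPM to 6.75, 8.2 and 8.19 CPM (−0.79 ± 0.30, adjusted p = 0.0272). In all 7 the 3 CD69-hi libraries lay below both NP libraries. Of the 40 members, called or not, 12 lay below in this way and 8 above, and all genes were not counted. The calls of Ect2 and Mad2l1 were each lost in 3 fits that left out 1 library, with adjusted p up to 0.187 and 0.102, and those of the other 5 held in all 12 alternatives. The B-cell list summed to 366 to 891 CPM in these CD69-hi cells and 150 to 271 CPM in NP cells, with 10 of 12 genes higher, and with its sum as a covariate 2 members were higher and 9 lower. The thymocyte list fell together with the members that fell, from 35.1 to 35.9 CPM in NP to 2.68 to 2.99 CPM in CD69-hi libraries, with 3 of its 4 genes lower and Ptcra at 0 in both groups. Nearly all of that list is Dntt, and its part in the falls was not tested.

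**Figure D3:**
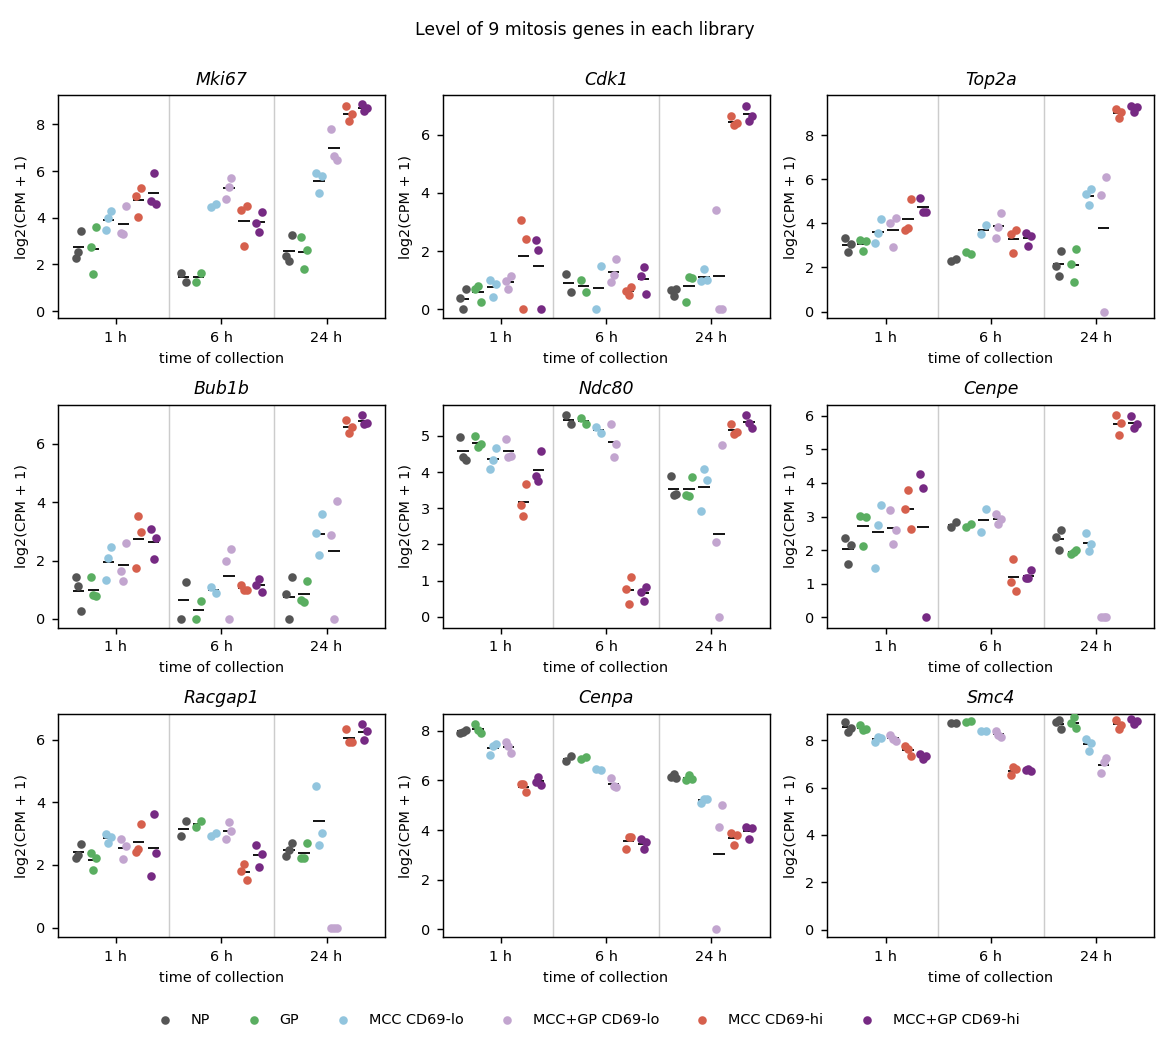
Level of 9 of the genes in each library as log2(CPM + 1), grouped by time and coloured by condition; each point is a library and each black line the mean of the plotted values of a group. Ndc80, Cenpe and Racgap1 dip in CD69-hi cells at 6 h and are high at 24 h, Cenpa stays low there, and Smc4 dips and returns to the level of NP cells.

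At 1 h some of the set was already higher in MCC CD69-hi than in NP cells, at low levels. There 12 members were called higher and 3 lower, where 12.4% of all tested genes were higher and 17% lower, and the median log2 fold change was 0.88 against −0.05 over all genes. Only 7 of the 40 had every CD69-hi library above every NP library, a separation that was not counted over all genes. Mki67 read 29.5, 15.2 and 38 CPM against 3.84, 4.80 and 9.86 CPM (2.32 ± 0.54, adjusted p = 0.00118), and Top2a 11.8, 12.8 and 33.7 CPM against 8.91, 5.40 and 7.29 CPM (1.54 ± 0.43). Cdk1 read 7.48, 0 and 4.33 CPM against 0.307, 0 and 0.643 CPM (3.85 ± 0.73, adjusted p = 3.96e-05), so the groups overlap in the library that holds no count. Ccnb1 had 16 counts against 3, a ratio of 13.5 with a counting interval of 3.87 to 72.5, and Aurkb 10 against 2, a ratio of 12.7 with an interval of 2.70 to 119. The others called higher were Ccna2, Ncapg, Cenpe, Spc25, Bub1b, Birc5 and Kif20a. In the CD69-hi libraries Ccna2 read 7.09, 0 and 2.78 CPM and Spc25 0.787, 0 and 3.40 CPM. Ccna2 was not called without CD69-hi replicate 1 (adjusted p = 0.162), nor Spc25 without replicate 3 (0.698). Ccna2 was called in 11 of 12 alternatives, Ncapg and Bub1b in 10 of 12, and Kif20a in 11 of 13. Birc5 and Aurkb were called in 8 of 12, Spc25 in 7 of 12 and Cenpe in 7 of 13. The 3 called lower were Cenpa, at 56.7, 57.1 and 45.2 CPM against 240 to 264 CPM (−2.26 ± 0.19), Ndc80, at 7.48, 5.83 and 11.8 CPM against 30.6, 20.4 and 19.3 CPM (−1.38 ± 0.32), and Smc4, at 214, 196 and 162 CPM against 325 to 431 CPM (−0.97 ± 0.15).

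RNA of other cells moved with the rises of 1 h. The B-cell list summed to 1285 to 2282 CPM in the MCC CD69-hi libraries and 192 to 286 CPM in the NP libraries, with 12 of 12 genes higher, and the myeloid and dendritic list to 207 to 345 CPM against 43.0 to 73.4 CPM, with 12 of 13 genes higher and Itgam at 0 in both groups. With the B-cell sum as a covariate, 3 members were called higher (Cdk1, Ccna2 and Ccnb1) and 4 lower, and the change of Mki67 went from 2.32 to 1.38 (adjusted p = 0.16) and that of Top2a from 1.54 to 0.68 (adjusted p = 0.403). The B-cell sums of these groups do not overlap, so this fit cannot tell B-cell RNA from the response. Top2a was also not called without replicate 3 of the CD69-hi libraries (0.85, adjusted p = 0.274). In a fit of the compared groups alone, 5 were higher and 3 lower. Under RLE size factors 15 were higher and 3 lower, and the share of rises among all called genes went from 42.2% to 54.6%. The falls of Cenpa, Ndc80 and Smc4 were called in all 13 alternatives. The thymocyte list was lower as well, at 12.7 to 24.6 CPM against 31.8 to 39.7 CPM with 4 of 4 genes lower and Rag1 and Ptcra at 0 in the CD69-hi libraries, and its part in these falls was not tested.

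Over the 3 times, MCC CD69-hi against NP cells gave a small number of patterns. Higher at 24 h alone were 21 members, and 10 were higher at 1 and 24 h and not called at 6 h. Mki67 was higher at every time and Kif11 at 6 and 24 h. Lower at 6 h and higher at 24 h were 5, namely Cenpe, Ndc80, Mad2l1, Racgap1 and Ect2. Cenpa was lower at every time, and Smc4 lower at 1 and 6 h. How many of all tested genes show each of these patterns was not counted. Tested as a difference of differences, a comparison added after results had been seen, the change from NP was larger at 24 h than at 6 h for 33 members and smaller for none, where 13.7% of all tested genes were called larger and 9.21% smaller. Not called were Ccnb1, Ccnb2, Cenpf, Bub1, Ttk, Prc1 and Ube2c. The change was smaller at 6 h than at 1 h for 10 members and larger for none (13% smaller and 16.8% larger over all genes), with Ndc80 at −4.48 ± 0.54 and Cdk1 at −4.57 ± 1.14.

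MCC CD69-hi cells of the 3 times were also compared with each other, without NP cells as the reference. From 1 to 6 h, 13 members fell and 2 rose (Smc2 by 0.58 ± 0.20 and Cdc20 by 0.94 ± 0.39), where 18.5% of all genes fell and 22.2% rose. Without replicate 3 of the 1 h libraries, 8 fell and none rose. The B-cell list was lower at 6 h too, at 366 to 891 CPM against 1285 to 2282 CPM at 1 h, and with its sum as a covariate 9 members fell and 1 rose. From 6 to 24 h, 39 rose and none fell, where 21.3% of all genes rose and 16.9% fell. The largest of these were Cdk1 (7.22 ± 0.49) and Nuf2 (7.09 ± 0.75), and the smallest Prc1 (1.84 ± 0.35) and Smc4, from 105 ± 13.2 to 405 ± 51.5 CPM (1.95 ± 0.15). Cenpa was not called (0.14 ± 0.21, adjusted p = 0.645), at 10.9 ± 2.09 and 12.1 ± 2.13 CPM. For the median member of entry into mitosis the 6 to 24 h change was 4.81, for the spindle checkpoint 6.11 and for the midzone 3.93.

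The MCC CD69-lo cells showed a smaller rise at 24 h. Against NP cells 10 members were higher and 2 lower, where 9.83% of all tested genes were higher and 8.65% lower, with a median log2 fold change of 1.16 against 0. In a fit of the compared groups alone 7 members were called in place of 12, 5 higher (Ccna2, Top2a, Mki67, Tpx2 and Bub1b) and 2 lower. Hmmr, Cenpf, Ttk and Birc5 did not pass the filter on low counts there, and Racgap1 was not called (1.28, adjusted p = 0.174). The 2 lower were Smc4, at 261, 184 and 237 CPM (−0.88 ± 0.15, adjusted p = 1.21e-05), and Cenpa, at 33.1, 36.9 and 37.7 CPM (−0.98 ± 0.19, adjusted p = 0.000159). Among those that were higher, Ccna2 read 17.0, 7.13 and 10.7 CPM (3.86 ± 0.58, adjusted p = 1.76e-06), Top2a 39.7, 27.5 and 45.8 CPM (3.27 ± 0.45) and Mki67 60.5, 32.4 and 54.4 CPM (3.08 ± 0.52), all without overlap with NP cells. Tpx2, Hmmr, Cenpf, Bub1b, Ttk, Birc5 and Racgap1 were also called, at 1.46 to 11.3 CPM. Of these, Birc5 and Racgap1 overlapped NP cells. Racgap1 rested on replicate 1, at 21.7 CPM against 5.18 and 7.12 CPM, and without it was at 0.37 (adjusted p = 0.565). Cenpf without replicate 3 was at 1.04 (adjusted p = 0.538), and Ttk without replicate 2 at 2.25 (adjusted p = 0.428). In the order of plate wells, replicate 3 came after every NP library. Leaving out replicate 3 also ended the calls of Tpx2 (3.11, adjusted p = 0.0957) and Bub1b (2.32, adjusted p = 0.0611). Those of Ccna2, Top2a, Mki67, Smc4 and Cenpa held in all 13 alternatives.

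The rise in CD69-lo cells can be set against that in CD69-hi cells as a share of the mean CPM gained over NP, which ran from −14.9% (Kif23) to 21.4% (Nusap1) over the 38 genes that rose in CD69-hi cells. The difference between genes was not tested. The mean of Mki67 rose over NP by 12.4% of its rise in CD69-hi cells, that of Ccna2 by 10.6% and that of Top2a by 6.68%. For Cdk1 the share was 0.77%, with 0.945, 1.62 and 1.02 CPM in the CD69-lo libraries, and for Bub1 1.20%. The Cdk1 level of CD69-lo cells was not called against NP (1.24 log2 units). In the direct comparison at 24 h, 39 members were higher in CD69-hi than in CD69-lo cells and Cenpa was lower (−1.58 ± 0.21), where 29.1% of all tested genes were higher and 32.6% lower. The largest difference was that of Cdk1 (6.04 ± 0.53, adjusted p = 7.7e-15), followed by Bub1 (5.90 ± 0.76) and Cks2 (5.07 ± 0.41), and the smallest rises were those of Smc4 (0.84 ± 0.15) and Prc1 (1.12 ± 0.37). The B-cell list summed to 385 to 834 CPM in the CD69-lo libraries of 24 h and was higher than in NP cells for 12 of 12 genes, and its part in the rises of CD69-lo cells was tested only as a covariate, with which Ccna2, Top2a, Mki67, Tpx2, Hmmr, Bub1b and Birc5 remained called. That sum does not overlap the 153 to 270 CPM of NP cells, so the covariate cannot tell B-cell RNA from the response. Totals of these CD69-lo libraries were 941304 to 2870776 counts.

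**Figure D4:**
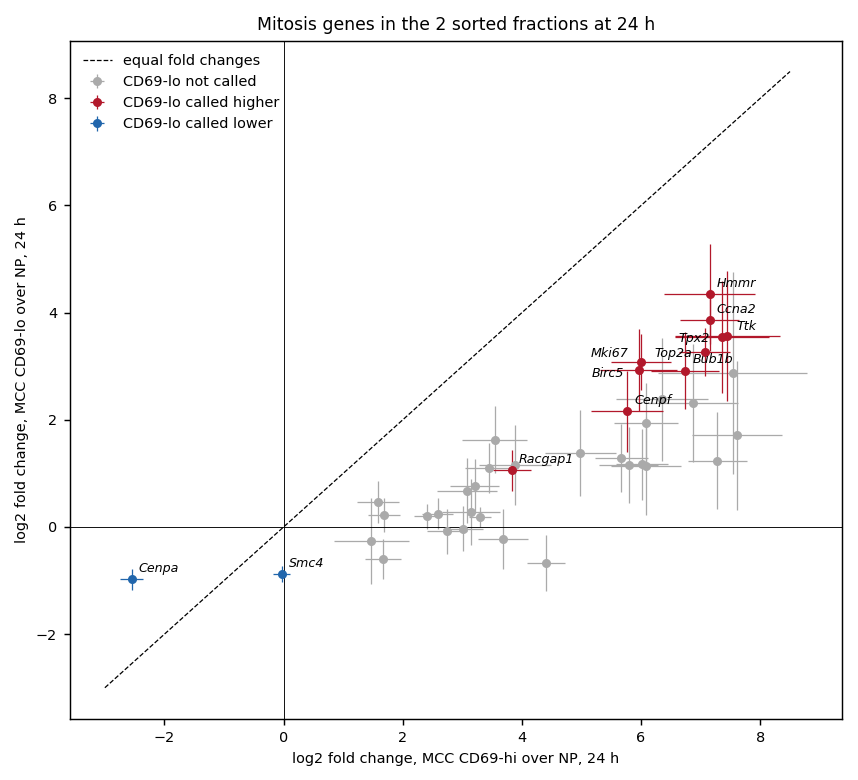
Log2 fold change over NP cells at 24 h with SE for MCC CD69-lo cells (vertical) against MCC CD69-hi cells (horizontal), each point a gene; the dashed line marks equal changes, and both axes share the NP libraries. All genes that rose in CD69-hi cells lie below the line, and the 12 genes called in CD69-lo cells are named.

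At the earlier times CD69-lo cells differed from NP cells in few members. At 1 h none was higher and 2 were lower, Smc4 (−0.49 ± 0.15, adjusted p = 0.0422) and Cenpa (−0.68 ± 0.17, adjusted p = 0.00961), where 2.72% of all genes were higher and 0.436% lower. Without single libraries of either group 0 or 1 of these calls remained. At 6 h Mki67 was the only one called, at 21.3 and 22.9 CPM against 2.14 and 1.41 CPM (3.61 ± 0.74, adjusted p = 0.00289), where 2.12% of all genes were higher and 0% lower, and leaving out either NP library ended that call. Mki67 in CD69-hi cells at the same time, at 5.84 to 22.0 CPM, was not called against CD69-lo cells.

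CD69-hi against CD69-lo cells at 6 h had 8 members lower and none higher. Over all genes 22.5% were lower and 19.9% higher, so the members' share of falls, 20%, is near that of all genes. They were Ndc80 (−5.57 ± 0.40), Cenpa (−2.96 ± 0.21), Cenpe (−2.22 ± 0.53), Aurkb (−1.73 ± 0.71), Smc4 (−1.66 ± 0.16), Racgap1 (−1.44 ± 0.40), Kif23 (−1 ± 0.37) and Mad2l1 (−0.79 ± 0.31), and 5 were called without replicate 2 of either group. At 1 h 3 were higher and 3 lower, where 3.46% of all genes were higher and 9.06% lower. Cdk1 (2.76 ± 0.65), Cks2 (1.18 ± 0.33) and Kif20a (1.36 ± 0.46) were higher, and Cenpa (−1.58 ± 0.19), Ndc80 (−1.14 ± 0.32) and Smc4 (−0.48 ± 0.15) lower. In a fit of the compared groups alone 1 of the 40 was called at 1 h.

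The design allows asking what GP adds, alone or with the agonist. In GP against NP cells no member was called at 1, 6 or 24 h, where 0% of all genes were called except 0.00581% higher at 24 h. Unadjusted p-values under 0.05 were given by 1, 1 and 2 of the 40, and DESeq2 called none. In CD69-hi cells of 24 h GP with MCC was compared with MCC alone, and again none of the 40 was called, with 0 at an unadjusted p under 0.05, 0 by DESeq2 and 0% of all genes called in either direction. All 40 estimates were positive, from 0.04 (Cenpe) to 0.48 (Cdc25c), with a median of 0.21 and a median SE of 0.35, while the median over all genes was 0. These genes vary together across libraries, so the 40 signs are not 40 separate observations. Mki67 read 467, 376 and 421 CPM with GP and 440, 283 and 353 CPM without, and Top2a 643, 523 and 618 CPM against 571, 432 and 534 CPM. The groups overlap for both genes. Cdk1 at 0.26 ± 0.31 has a 95% interval of −0.35 to 0.88, and Smc2 at 0.08 ± 0.16 an interval of −0.23 to 0.39, so differences of these sizes were not detectable with 3 libraries a group.

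Titles name the plate well of each library. In the order of wells the groups recur in passes, and each pass is called a plate round here. The rounds were assigned here and are not in the labels, and a plate column can hold libraries of different rounds. Both CD69-hi groups of 24 h have 1 library in each of rounds 1 to 3. With GP, 37, 35 and 35 of the 40 members were higher within rounds 1, 2 and 3. Median log2 ratios were 0.24, 0.25 and 0.17, and the members' sum was 4249, 3279 and 3691 CPM against 3765, 2779 and 3249 CPM. Each round sets 1 library against 1 and the members vary together, so the members of a round are not separate observations. All genes were not counted in this way. In both groups the library of round 1 had the highest level for most members (39 without and 37 with GP) and that of round 2 the lowest (36 and 35). The labels do not say what the libraries of a round share. The B-cell list summed to 36.4 to 109 CPM without GP and 13.8 to 87.9 CPM with it.

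**Figure D5:**
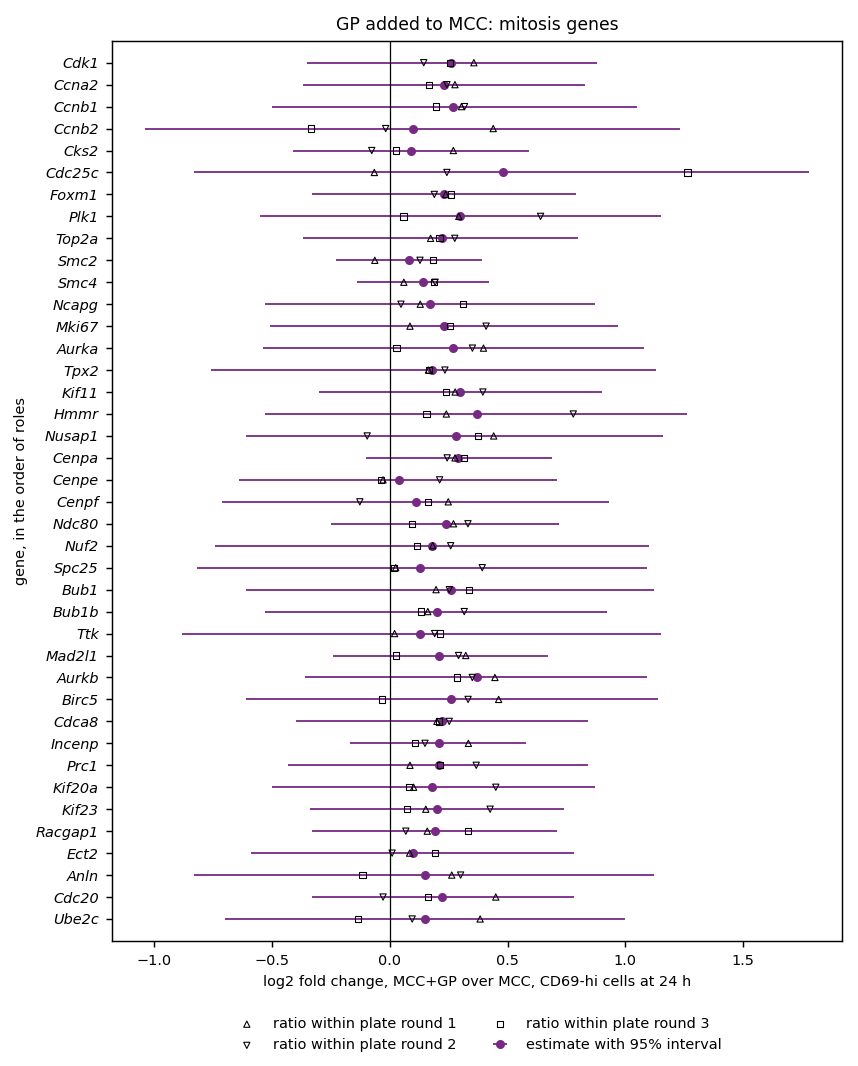
Log2 fold change of MCC+GP over MCC in CD69-hi cells at 24 h for each gene with its 95% interval (filled points and lines), and the ratio of the libraries of the same plate round (open symbols). All 40 estimates lie to the right of 0, and all 40 intervals include 0.

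At the earlier times GP with MCC again gave no call in CD69-hi cells. At 1 h 6 members had an unadjusted p under 0.05, with Cdc20 nearest to a call, at 18.3 ± 7.15 CPM with GP and 6.77 ± 3.37 CPM without (1.62 ± 0.43, adjusted p = 0.0525), where 0.227% of all genes were higher and 0.453% lower. It was called in 6 of 13 alternatives, DESeq2 among them, with adjusted p from 0.0134 to 0.999, and was not called with the compared groups alone. At 6 h no member had an unadjusted p under 0.05 and 0% of all genes were called. The difference between the GP effect in CD69-hi cells and that without agonist was called for no member at 6 or 24 h, with 0 at an unadjusted p under 0.05 and 0% of all genes called.

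Measured against GP cells, MCC+GP CD69-hi cells gave counts near those of MCC CD69-hi against NP cells, with different libraries on both sides. At 24 h 38 were higher and 1 lower (29.5% and 29% of all genes), with Cenpa again the lower (−2.19 ± 0.19) and Smc4 again not called (0.07 ± 0.14). At 6 h 4 were higher and 6 lower (23.5% and 23.2% of all genes), with Ndc80 at 0.58 ± 0.20 CPM against 41.6 ± 3.62 CPM (−6.09 ± 0.42). The other falls were Smc4, Cenpa, Cenpe, Mad2l1 and Racgap1, all of which also fell in MCC CD69-hi against NP cells. At 1 h 8 were higher and 2 lower (13.7% and 20.1% of all genes). With the B-cell sum as a covariate these were 2 and 4.

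In CD69-lo cells GP with MCC gave calls at 24 h only, in the shallowest libraries of the series. At 1 and 6 h none was called, with 1 and 2 members at an unadjusted p under 0.05 and 0% of all genes called. At 24 h 6 were higher (Ncapg, Mki67, Kif11, Nuf2, Incenp and Anln) and 4 lower (Smc4, Cenpa, Prc1 and Racgap1), where 7.37% of all genes were higher and 12% lower. The floor of 3 counts over the MCC+GP group was 3.96 CPM, and Prc1 and Racgap1 had no count there. In the same libraries the myeloid and dendritic list summed to 1516 to 2929 CPM, against 189 to 503 CPM with MCC alone, with 12 of 13 genes higher, and the B-cell list to 1400 to 1895 CPM against 385 to 834 CPM, and their part in the result was not tested beyond the B-cell covariate, which left 2 higher and 4 lower. Without replicate 1 of the MCC+GP libraries 4 members were called, and without replicate 3 there were 5, and Nuf2 then turned from 2.97 to −5.98. In a fit of the compared groups alone 1 member was called.

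Other genes of the cell cycle, in lists written for their roles with earlier results of these data known, moved with the 40 at 24 h. Of 50 further mitosis genes in the table, 45 were higher and 2 lower in MCC CD69-hi than in NP cells at 24 h, with a median log2 fold change of 4.11. Over all tested genes 29.2% were higher and 28.7% lower. Espl1, the separase that cuts cohesin, rose from 0.56 ± 0.30 to 77.4 ± 15.8 CPM (6.98 ± 0.49), and the kinase gene Melk by 6.84 ± 0.56. The 2 that fell were Cdc25b, another Cdk1-activating phosphatase, from 117 ± 17.2 to 11.4 ± 0.57 CPM (−3.36 ± 0.27, adjusted p = 9.04e-16), and Pttg1 (securin), from 9.46 to 4.13 CPM (−1.18 ± 0.45, adjusted p = 0.0216). Of 55 genes of G1, S phase and replication, 53 were higher and none lower, with a median of 3.37. Uhrf1, a factor that maintains DNA methylation, rose from 2.64 ± 1.83 to 809 ± 75.8 CPM (8.23 ± 0.37), and the replication genes Mcm10 and Cdc6 by 7.93 ± 0.49 and 6.61 ± 0.38.

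At 6 h both lists held genes called in each direction. Of the 55 replication genes 18 were higher and 13 lower, and of the 50 other mitosis genes 8 and 16, where 23.2% of all genes were higher and 23.6% lower, so the falls of the replication list are at the share of all genes. Ccnd2 (cyclin D2), which acts in G1, rose from 154 ± 44.3 to 1643 ± 173 CPM (3.41 ± 0.24), its partner kinase gene Cdk6 by 3.78 ± 0.41, and Ccne1 (cyclin E1) fell by 2.80 on the log2 scale. Among the other mitosis genes Cdc25b fell from 98.5 ± 21.7 to 2.72 ± 1.13 CPM (−5.20 ± 0.34) and the motor gene Kif22 by 2.78, and the motor gene Kif15 rose from 4.29 ± 1.40 to 69.7 ± 5.58 CPM (4.02 ± 0.47).

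Of 16 CDK inhibitors, pocket proteins and antiproliferative factors, 9 were lower and 3 higher in MCC CD69-hi than in NP cells at 24 h, where 28.7% of all genes were lower and 29.2% higher. Cdkn1b (p27) went from 473 ± 23.9 to 30.4 ± 1.79 CPM (−3.96 ± 0.19), the pocket protein gene Rbl2 (p130) fell by 2.95 and Btg2 by 2.77 on the log2 scale. Cdkn1a (p21), an inhibitor induced by many signals, went the other way, from 2.51 ± 1.20 to 44.6 ± 6.42 CPM (4.12 ± 0.44), as did Tob2 (1.66 ± 0.23) and Cdkn2c (1.66 ± 0.55). At 6 h Cdkn1b and Rbl2 were already lower (−4.37 ± 0.20 and −4.24 ± 0.25), and 7 of the 16 fell and 3 rose, where 23.6% of all genes fell and 23.2% rose.

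Of 12 genes for the MuvB core, B-Myb and E2F repressors, which switch late cell cycle genes off at rest and on in G2, 8 were higher and 2 lower at 24 h, against the same 29.2% and 28.7% of all genes. Mybl2 (B-Myb) rose from 5.26 ± 1.16 to 119 ± 14 CPM (4.50 ± 0.33) and Tfdp1, a dimer partner of E2F factors, by 5.10 ± 0.16, while Tfdp2 (−0.97 ± 0.29) and Lin37 (−0.59 ± 0.23) fell. Changes in the complexes that the 40 genes work with were smaller. Of 15 genes of the anaphase-promoting complex, its core subunits and the activator Fzr1, 10 rose and Anapc2 fell (−0.48 ± 0.18), with a median of 0.54. Of 10 cohesin genes 5 rose and Nipbl fell (−0.87 ± 0.14), with a median of 0.43. Over all genes 29.2% rose and 28.7% fell. Esco2, which acetylates cohesin in S phase, rose by 6.82 ± 0.73 and Smc1a by 1.19 ± 0.13.

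In CD69-lo cells of 24 h, against NP cells, 14 of the 50 other mitosis genes rose and 2 fell, and 17 of the 55 replication genes rose and 1 fell, with medians of 0.79 and 0.48, where 9.83% of all genes rose and 8.65% fell. Espl1 rose to 10.7 ± 2.69 CPM (4.13 ± 0.56) and Uhrf1 to 26.3 ± 9.93 CPM (3.24 ± 0.41). Cdkn1a was at 67.8 ± 24.9 CPM (4.67 ± 0.45) in CD69-lo cells, and Cdkn1b at 234 ± 16.1 CPM (−1.01 ± 0.17).

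By RefSeq on GRCm38.p6, the patch release of the mm10 build that the submitters' processing notes name, all 40 genes were matched by symbol. Cdk1 lies on chromosome 10 at 69335146 to 69352912, Top2a on chromosome 11 at 98992947 to 99024199, Mki67 on chromosome 7 at 135689784 to 135716450, Smc4 on chromosome 3 at 69004738 to 69034623, Cenpa on chromosome 5 at 30666877 to 30674837 and Ndc80 on chromosome 17 at 71496100 to 71526857, each as the span of the whole gene. The genes Ccna2, Foxm1, Ncapg, Aurka, Nusap1, Prc1, Kif20a, Anln and Cdc20, 9 in all, overlap another protein-coding gene, and the sources used here do not say whether counting used the strand, so their counts may include reads of the neighbour.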

How the data were processed

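Poly-adenylated RNA of sorted T cells was sequenced as paired reads. Per the submitters' processing notes, the authors used bcl2fastq 2.20, STAR 2.6.1c, HTSeq 0.9.1 and the mm10 build. The deposited raw counts per gene were used for every test, and 0 sample columns were left unused. The deposited TPM table, whose columns sum to 9986 to 9996, served only to order genes within a group. The 40 genes and the lists were chosen with earlier results of these data known. Groups come from the source label of each sample.

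Counts were scaled with TMM, filtered with filterByExpr by group and fitted with edgeR 4.0.16 (robust quasi-likelihood, R 4.3.3) over all 51 libraries, with two-sided tests adjusted over 17211 genes. The script was tested on simulated data. Intervals are the estimate ± 1.96 SE or, for ratios of few counts, exact and for counting error only. Replicates of a group differed by 3.91 to 19.3 in chi-square per degree of freedom, so none is a copy. Alternatives were RLE size factors, no filter, DESeq2 1.42.0, the compared groups alone, a replicate block by plate round, the B-cell marker sum as a covariate, the 3 shallowest libraries left out, and each library left out in turn. Where the B-cell sum does not overlap between the groups compared, that covariate cannot tell B-cell RNA from the response. Named genes are a fixed panel, the members with the largest and smallest changes, short lists of called or uncalled members, and up to 4 genes of each other list with at least 5 CPM.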

Additional observations from a re-analysis of the deposited data

Results flagged for a closer look

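For 5 of the genes the response to agonist in CD69-hi cells had opposite directions at 6 and 24 h, lower and then higher than in cells without peptide. They were picked for calls in opposite directions, which nearly fixes that the difference is called as well, so its size is given as a description. How many of all tested genes have such opposite calls was not counted. Going from 6 to 24 h, the log2 fold change over NP cells differed by 7.55 ± 0.48 for Ndc80, by 5.71 ± 0.67 for Cenpe, by 5.52 ± 0.50 for Racgap1, by 4.87 ± 0.67 for Ect2 and by 3.38 ± 0.39 for Mad2l1. At 6 h only 2 NP libraries entered, and the falls of Ect2 and Mad2l1 at that time were lost in 3 of the fits that left out a library.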

How the results depend on the processing

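Of 4075 recomputed values of called members, 3781 were still called, 293 kept their direction without a call and 1 reversed: Nuf2 in MCC+GP against MCC CD69-lo cells of 24 h, at −5.98 without MCC+GP CD69-lo replicate 3 and up to 4.16 without other single libraries. Counts of called members moved by over 1.5 times as follows, and the cause was not tested unless given. In MCC CD69-hi against NP cells at 1 h the count of 15 became 7 with B-cell RNA as a covariate and 8 with the compared groups alone. For CD69-lo against NP cells, the 2 of 1 h became 1 without a filter, with the covariate and with the compared groups alone, the 1 of 6 h became 2 with the replicate block and with the compared groups alone, and the 12 of 24 h became 7 with the compared groups alone, where Hmmr, Cenpf, Ttk and Birc5 did not pass the filter. For CD69-hi against CD69-lo cells at 1 h the 6 became 1 with the compared groups alone. For MCC+GP against MCC CD69-hi cells at 1 h the 0 became 1 under RLE size factors, without a filter, without the 3 shallowest libraries and under DESeq2. For MCC+GP against MCC CD69-lo cells at 24 h the 10 became 6 with the covariate and 1 with the compared groups alone, and for MCC+GP CD69-hi against GP cells at 1 h the 10 became 6 in both.

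Leaving out 1 library at a time gave 0 to 1 calls for CD69-lo against NP cells at 1 h and at 6 h, 5 to 8 for CD69-hi against CD69-lo cells at 6 h, 0 to 1 for MCC+GP against MCC CD69-hi cells at 1 h, 4 to 10 for MCC+GP against MCC CD69-lo cells at 24 h, and 8 to 15 for CD69-hi cells at 6 against 1 h. Where this left 1 library in a group, it was assumed to vary like the other groups. RLE size factors moved the median of all genes in CD69-hi against NP cells of 24 h from −0.14 to −0.29. They moved the share of rises among all called genes from 42.2% to 54.6% in CD69-hi against NP cells at 1 h, from 27.6% to 48.4% against CD69-lo cells at 1 h, from 40.6% to 59.7% in MCC+GP CD69-hi against GP cells at 1 h, from 33.3% to 60.9% in MCC+GP against MCC CD69-hi cells at 1 h, and from 38.1% to 57.1% in MCC+GP against MCC CD69-lo cells at 24 h.

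Libraries share a plate round only by the order of their wells, as assigned here, and the labels name no rounds. The last round holds libraries of MCC CD69-lo at 1 and 24 h and of MCC+GP CD69-hi at 1 h, and no other group. Comparisons of these groups with other groups are thus not balanced over rounds. In MCC CD69-lo against NP cells of 24 h, Cenpf, Tpx2 and Bub1b were among the calls lost without the library of that round. The part of the round in these calls was tested only by the replicate block. Deviations from the group mean correlated by a median of 0.21 within a round (366 pairs, −0.27 to 0.78) and −0.08 between rounds (861 pairs), over 4535 genes. With the replicate block, MCC CD69-hi against NP cells gave 14, 10 and 39 called members at 1, 6 and 24 h, and MCC+GP against MCC CD69-hi cells of 24 h gave 0, with estimates of 0.04 to 0.47.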
